A study of Mus musculus with 9 samples.

Results

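The urea cycle and amino acid catabolism genes described here are 42 mouse genes, chosen by symbol from a table of 22173 genes. All 42 had a row in the table and all 42 passed the filter on low values, which 9884 genes passed. The study sequenced polyA RNA from 9 mouse libraries in 3 groups of 3, and the labels call the source cholangiocyte, the epithelial cell of the bile ducts. The groups were sham-operated mice, mice with bile duct ligation (BDL), and mice with BDL that were also given senkyunolide A, called the treated libraries below. Senkyunolide A is a phthalide found in medicinal plants of the parsley family. BDL is a surgical model of obstructive cholestasis in which bile can no longer leave the liver. The labels used here give no strain, sex, age, dose or time, nor whether each library is a separate animal. The p-values below therefore cover the variation among the sequenced libraries only, some of which may be technical.

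The liver clears nitrogen from amino acids. Enzymes of each amino acid's own pathway strip off the amino group and pass it, through aminotransferases and glutamate dehydrogenase, to the urea cycle, while the carbon skeletons go to glucose, ketone bodies or the citric acid cycle. The urea cycle begins in mitochondria, where ammonia is fixed, and ends in the cytosol, where arginase releases urea. Most of the enzymes listed here are made mainly by hepatocytes, and many are graded along the liver lobule.

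The levels are in FPKM, which count a gene's sequenced fragments relative to its transcript length and to the size of the library, and this allows levels of different genes to be compared per length. Estimated depth was 27.3 to 33.8 M fragments per library, where M stands for mega. Transcripts of 29 hepatocyte markers held 18.4% to 20.8% of the summed FPKM of the sham libraries, 19.4% to 25.2% of that of the BDL libraries and 20.2% to 24.8% in the treated libraries. These markers did not move as one, with 15 log2 differences positive and 14 negative in BDL against sham. Transcripts of 20 biliary markers held at most 0.0104% in any sham library, 0.0198% to 0.125% in the BDL libraries and 0.0121% to 0.0783% in the treated libraries, and none of the markers was listed at 0 in every library. Hepatocyte transcripts were therefore far more abundant than biliary ones in libraries labelled cholangiocyte. Much of the biliary sum was Spp1 alone, 24.6 of 48.7 FPKM in sham library 1 and 551.4 of 608.6 in BDL library 3. Only 10 of the 20 biliary markers passed the filter on low values. In bulk RNA, fewer cells of a type and less RNA per cell cannot be told apart. The 14 macrophage markers held at most 0.087% in any sham library, 0.2% to 0.297% in BDL and 0.116% to 0.486% in the treated libraries, and the 10 neutrophil markers held at most 0.00124% in any sham library, 0.00854% to 0.0136% in BDL and between 0.00349% and 0.0198% in the treated libraries. The 13 stellate and fibroblast markers held at least 0.0314% in every sham library, between 0.00775% and 0.0344% in the BDL libraries and at least 0.0328% in the treated libraries, and the 13 endothelial markers 0.0249% to 0.0334%, 0.0136% to 0.0371% and 0.0284% to 0.0416%, in the same order of groups. The stellate and fibroblast markers did not move as one, with 4 log2 differences positive and 9 negative in BDL against sham. In a principal component analysis of the tested genes, the leading component (53.8% of the variance) placed the sham libraries at -49.6 to -37.5 and the BDL libraries at 14.7 to 40.1. Treated libraries 2 and 3 stood among the BDL libraries at 26.7 and 40.0, and treated library 1 stood between the groups at -16.9. The part of the marker transcripts in the results below was not tested.

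The 42 genes are not similar in level. In sham libraries the mean level ran from 2.97 ± 0.21 FPKM (SD, n = 3) for Sdsl, a serine dehydratase-like enzyme, to 1398 ± 258 FPKM for Bhmt, the betaine-homocysteine methyltransferase. Bhmt ranked 47 and Sdsl ranked 6977 of the 22173 genes by sham mean. The 42 genes together held 2.76%, 2.02% and 2.23% of the summed FPKM in the sham libraries, 4.0%, 3.73% and 2.49% in the BDL libraries and 2.62%, 2.46% and 2.88% in the treated libraries. BDL libraries 1 and 2 were the highest of the 9, and BDL library 3 lay within the sham range. This sum follows the few most abundant members, Bhmt, Gnmt, Ass1, Hpd and Cps1 among them, so the genes were also read one by one.

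**Figure D1:**
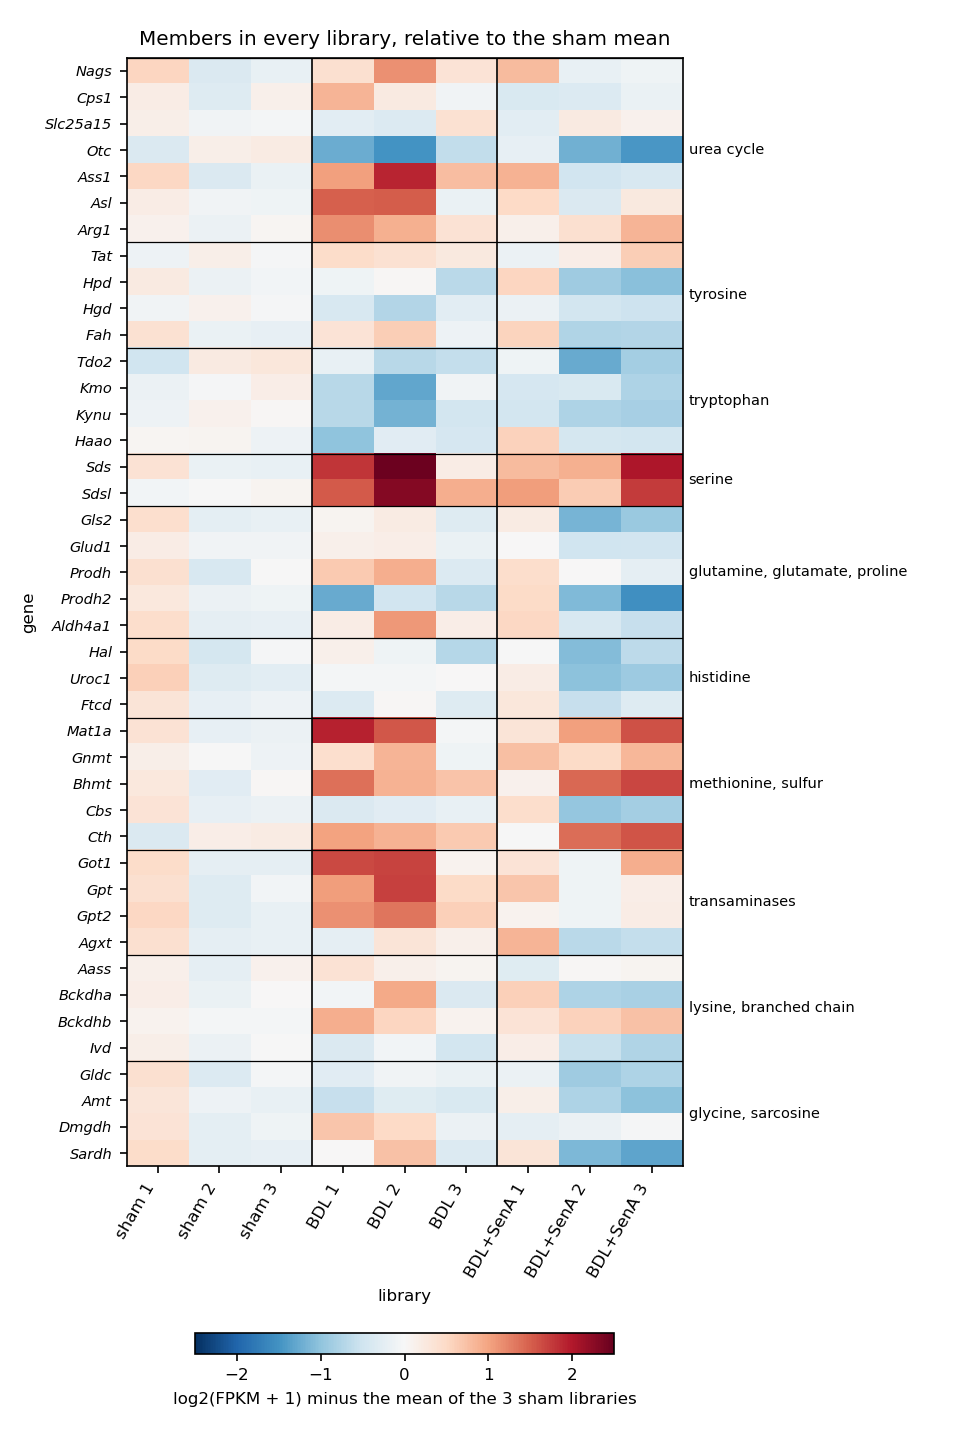
Level of each of the 42 genes (rows, grouped by pathway) in each of the 9 libraries (columns), as log2(FPKM + 1) minus the mean of the 3 sham libraries. Red is higher and blue lower than the sham mean. Sds, Sdsl, Ass1, Got1 and Gpt are red in BDL libraries 1 and 2, Otc and Kynu are blue in all 3, and treated library 1 is unlike treated libraries 2 and 3 in many rows. SenA stands for senkyunolide A.

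The stretches before the start sites of the Ass1, Gpt2 and Otc genes are shown because these belong to the 6 members with the smallest p in BDL against sham and have an entry in the RefSeq promoter table, and because Ass1 and Gpt2 stood higher and Otc lower after BDL. The bases are from RefSeq on GRCm38.p6, plus strand, 5′ to 3′. Capitals mark a GC box, the letters GGGCGG on either strand, which Sp-family factors can bind. Each stretch begins 250 bases before the RefSeq start and ends where the first transcript annotated by RefSeq or GENCODE begins.
Gpt2, chr8:85492326-85492575: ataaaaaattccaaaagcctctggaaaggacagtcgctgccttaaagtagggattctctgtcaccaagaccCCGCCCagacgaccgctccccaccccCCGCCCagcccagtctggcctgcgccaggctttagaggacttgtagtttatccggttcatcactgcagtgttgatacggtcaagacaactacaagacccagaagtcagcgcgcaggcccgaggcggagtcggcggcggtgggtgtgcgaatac
Ass1, chr2:31470020-31470206: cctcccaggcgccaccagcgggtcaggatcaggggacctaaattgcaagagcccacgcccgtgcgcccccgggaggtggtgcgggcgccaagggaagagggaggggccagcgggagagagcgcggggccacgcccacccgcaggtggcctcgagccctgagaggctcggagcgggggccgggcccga
Otc, chrX:10252055-10252229: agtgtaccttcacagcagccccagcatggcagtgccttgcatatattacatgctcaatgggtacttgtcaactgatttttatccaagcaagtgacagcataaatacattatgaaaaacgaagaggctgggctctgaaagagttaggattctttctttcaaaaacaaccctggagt

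In the 250-base windows, Gpt2 held 2 GC boxes, both on the reverse strand, starting 179 and 153 bases before the start. Ass1 held 1, which starts 63 bases before the RefSeq start, directly after the bases shown. Otc held none. The GC content was 57.6% for Gpt2, 75.6% for Ass1 and 43.6% for Otc, against a median of 55.8% over the 32 members with an entry and 52.0% over all 27025 genes of the table. The GC box was found in 12 of the 32 members, or 37.5%, against 35.4% of all genes. The letters TATAAA were in 12.5% of members against 14.3% of all genes, TTGCNNAA (a C/EBP-type motif) in 12.5% against 10.8%, AGTCCA (an HNF4 half-site) in 18.8% against 13.1%, AGAACA (a glucocorticoid receptor half-site) in 9.38% against 18.2%, and TGATGNAA (the amino acid response motif read by ATF4 dimers) in 3.12% against 3.91%. Both strands were searched for each motif and matches were allowed to overlap. The last of these was found in 1 member, Got1. With 32 members these shares rest on 12 genes or fewer, and a match is a description of letters, not of binding.

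Differences between groups were tested with limma on log2(FPKM + 1), and p-values were adjusted by the Benjamini-Hochberg method over all 9884 genes. A gene is said to have risen or fallen where this adjusted p was under 0.05. In BDL against sham, 2 of the 42 genes passed, and both rose: Sdsl and Gpt2, the mitochondrial alanine aminotransferase. That is a lower share than among all tested genes, of which 11.0% passed, 8.12% higher and 2.84% lower. At an unadjusted p under 0.05 there were 13 of 42, against 28.6% of all genes. The BDL libraries lay wholly above the sham libraries for 9 members, against 21.5% of all genes, and wholly below for 6, against 8.96%. The median log2 difference of the 42 genes was 0.18, beside 0.15 over all genes, with 25 positive and 17 negative. Of all 9884 genes, 6256 were positive and 3628 negative.

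The 2 calls depended on which libraries and settings entered the fit. Without sham library 2, without sham library 3 and without BDL library 2, neither gene passed, where 1.76%, 1.55% and 1.95% of all genes did. Sdsl alone passed without BDL library 1 (7.3% of all genes) and without treated library 2 (8.35%). Without BDL library 3 the count was 11, against 12.6% of all genes: Arg1, Asl, Got1, Gpt, Gpt2, Mat1a, Sds and Sdsl rose and Kmo, Kynu and Otc fell. Without treated library 1, which enters the shared estimate of the spread, 9 passed against 17.4% of all genes: Ass1, Bhmt, Cth, Gpt, Gpt2 and Sdsl rose and Kynu, Otc and Prodh2 fell. Median-ratio scaling, which centres the libraries, turned the median of the 42 genes to -0.04 and that of all genes to -0.02, and then Sdsl rose and Kynu and Otc fell (10.4% of all genes, 524 higher and 502 lower in place of 803 and 281). Quantile normalization called Sdsl higher and Kynu lower (10.1% of all genes, 507 higher and 488 lower), with medians of 0.12 and -0.03. A fit of the 2 groups alone gave 7 members (13.2%), scaling to the hepatocyte markers gave Sdsl alone (7.03%), and a test of all genes above 0 in any library gave none (3.09%).

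**Figure D2:**
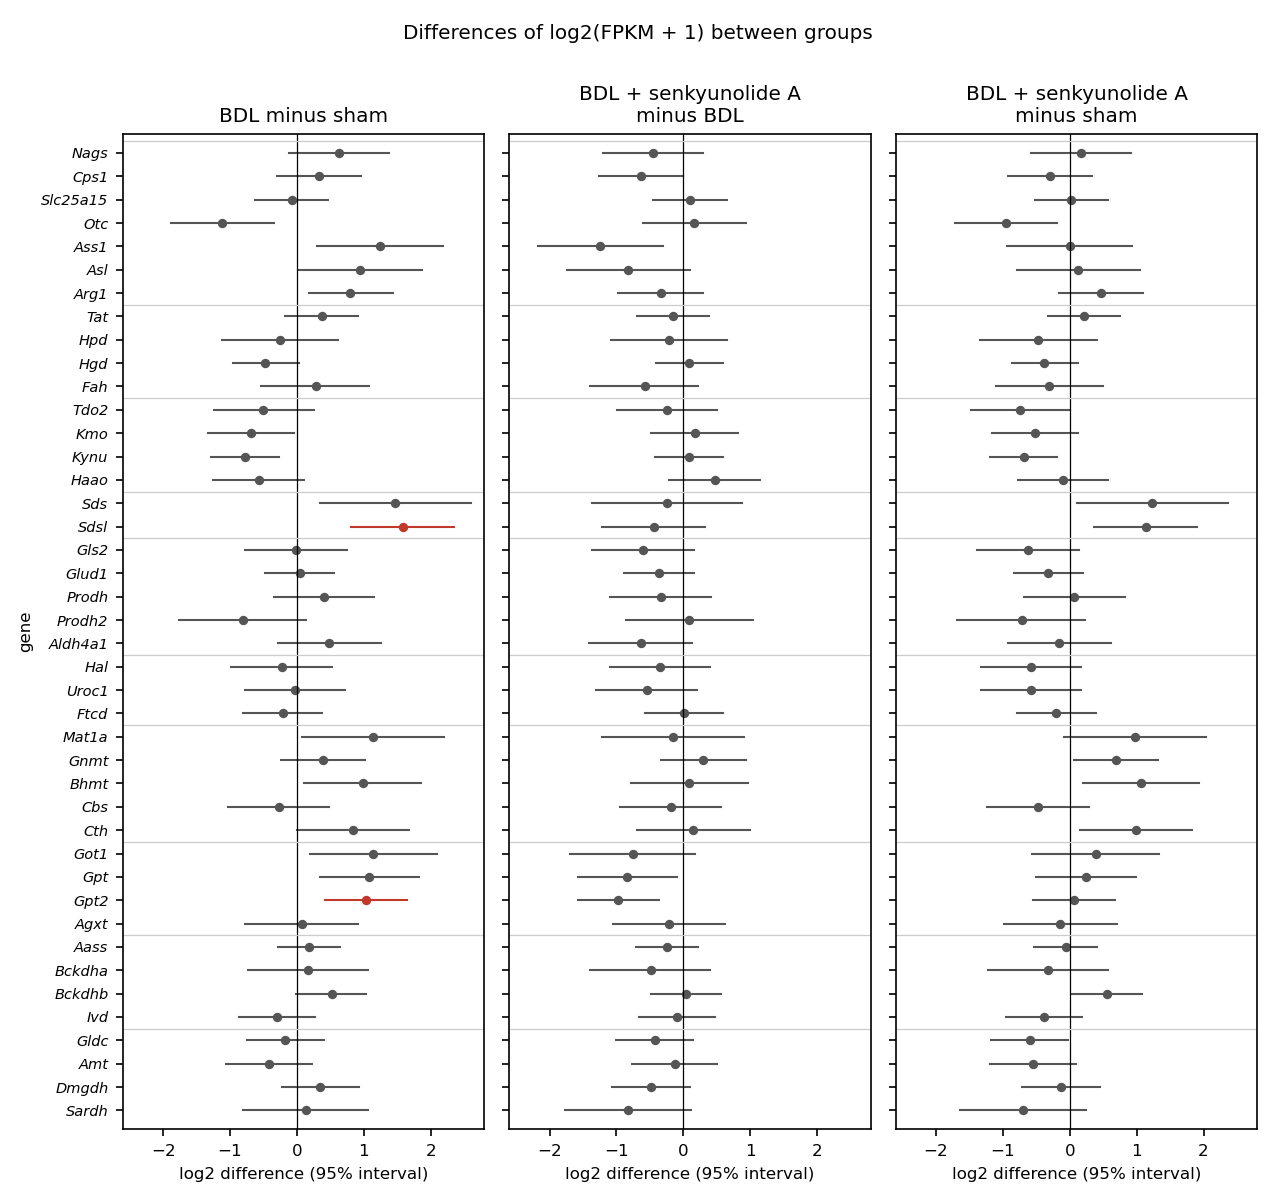
Log2 difference between groups for each of the 42 genes (rows), as points with 95% intervals from limma, in the 3 comparisons (panels). Red marks an adjusted p under 0.05, which only Sdsl and Gpt2 reach, in BDL against sham. In the first panel the points of the 4 tryptophan genes lie left of 0, and those of Sds, Sdsl, Got1, Gpt and Gpt2 lie near or above 1.

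Among the 7 urea cycle genes, none passed the test in any comparison, but their values did not go one way. Nags makes N-acetylglutamate, the obligatory activator of the first enzyme, and was at 32.9, 17.1 and 19.5 FPKM in the sham libraries, 29.7, 50 and 28.5 in the BDL libraries and 39.5, 19.5 and 20.5 in the treated libraries. Its gene (chr11:102145513-102149528) shares 15.6% of its exonic bases with an opposite-strand gene, where reads of such a pair cannot be told apart without strand, and the sources used here do not say whether strand was used. For Gls2, Bhmt, Dmgdh and Sardh such an overlap covers 2.79% to 6.3% of exonic bases. Cps1 (chr1:67122426-67231267), the mitochondrial carbamoyl phosphate synthetase that fixes ammonia, was at 798, 564 and 766 FPKM in the sham libraries, 1270.5, 822 and 657 in the BDL libraries and 538, 554 and 622 in the treated libraries. All 3 treated libraries lay below all 3 BDL libraries for Cps1, while both groups overlapped with sham. The log2 difference was 0.33 ± 0.29 (standard error, SE) in BDL against sham, with an adjusted p of 0.49 by limma, and -0.63 ± 0.29 in treated against BDL, with an adjusted p of 0.407.

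Otc (chrX:10252230-10321024), ornithine transcarbamylase, joins carbamoyl phosphate to ornithine in mitochondria. Of the 7 urea cycle genes it was the 1 that lay wholly below sham after BDL. It was at 94.2, 135 and 139.5 FPKM in the sham libraries, 50.4, 42.2 and 79.1 in the BDL libraries and 105, 51.9 and 43.5 in the treated libraries. The BDL libraries did not overlap with sham, treated libraries 2 and 3 were at the BDL level, and treated library 1 lay within the sham range. The log2 difference was -1.12 ± 0.35 in BDL against sham (limma, adjusted p = 0.0628), 0.16 ± 0.35 in treated against BDL (adjusted p = 0.83) and -0.96 ± 0.35 in treated against sham (adjusted p = 0.132). Slc25a15 (chr8:22375550-22398621), the carrier that exchanges ornithine and citrulline across the inner mitochondrial membrane, was at 106, 90 and 93.1 FPKM in the sham libraries, 79.4, 75.9 and 126 in the BDL libraries and 79.8, 112 and 104 in the treated libraries. Its groups overlapped throughout, and the 95% interval of the log2 difference in BDL against sham was -0.62 to 0.47.

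The genes of the 3 cytosolic steps had higher means after BDL, although none passed the test. Ass1 (chr2:31470270-31520670), argininosuccinate synthetase, was at 1285, 703 and 804 FPKM in the sham libraries, 1843, 3374 and 1542 in the BDL libraries and 1645, 645 and 679 in the treated libraries. All BDL libraries exceeded all sham libraries, and treated libraries 2 and 3 were below the lowest sham library while treated library 1 stood at the BDL level. The log2 difference was 1.24 ± 0.43 in BDL against sham (limma, adjusted p = 0.0847), -1.24 ± 0.43 in treated against BDL (adjusted p = 0.407) and 0.00 in treated against sham, with a 95% interval of -0.94 to 0.93. Asl (chr5:130011258-130024381), argininosuccinate lyase, was at 184, 154 and 152 FPKM in the sham libraries, 462, 467 and 144 in the BDL libraries and 231, 126 and 193 in the treated libraries. BDL libraries 1 and 2 were the highest of the 9 and BDL library 3 was under every sham library. The log2 difference of 0.95 ± 0.42 had an adjusted p of 0.163, and without BDL library 3 it was 1.51 with an adjusted p of 0.00945. Without BDL library 1 or BDL library 2 it was 0.67 and 0.66 (limma, adjusted p = 0.367 and 0.464). Asl passed in BDL against sham under 1 of the 17 other settings. Arg1 (chr10:24915207-24927470), arginase, which releases urea, was at 709, 596 and 682 FPKM in the sham libraries, 1473, 1223 and 850.2 in the BDL libraries and 724, 877 and 1189 in the treated libraries. Both ligated groups lay wholly above sham for Arg1, with log2 differences of 0.80 ± 0.29 (adjusted p = 0.0939) and 0.46 ± 0.29 (adjusted p = 0.362).

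**Figure D3:**
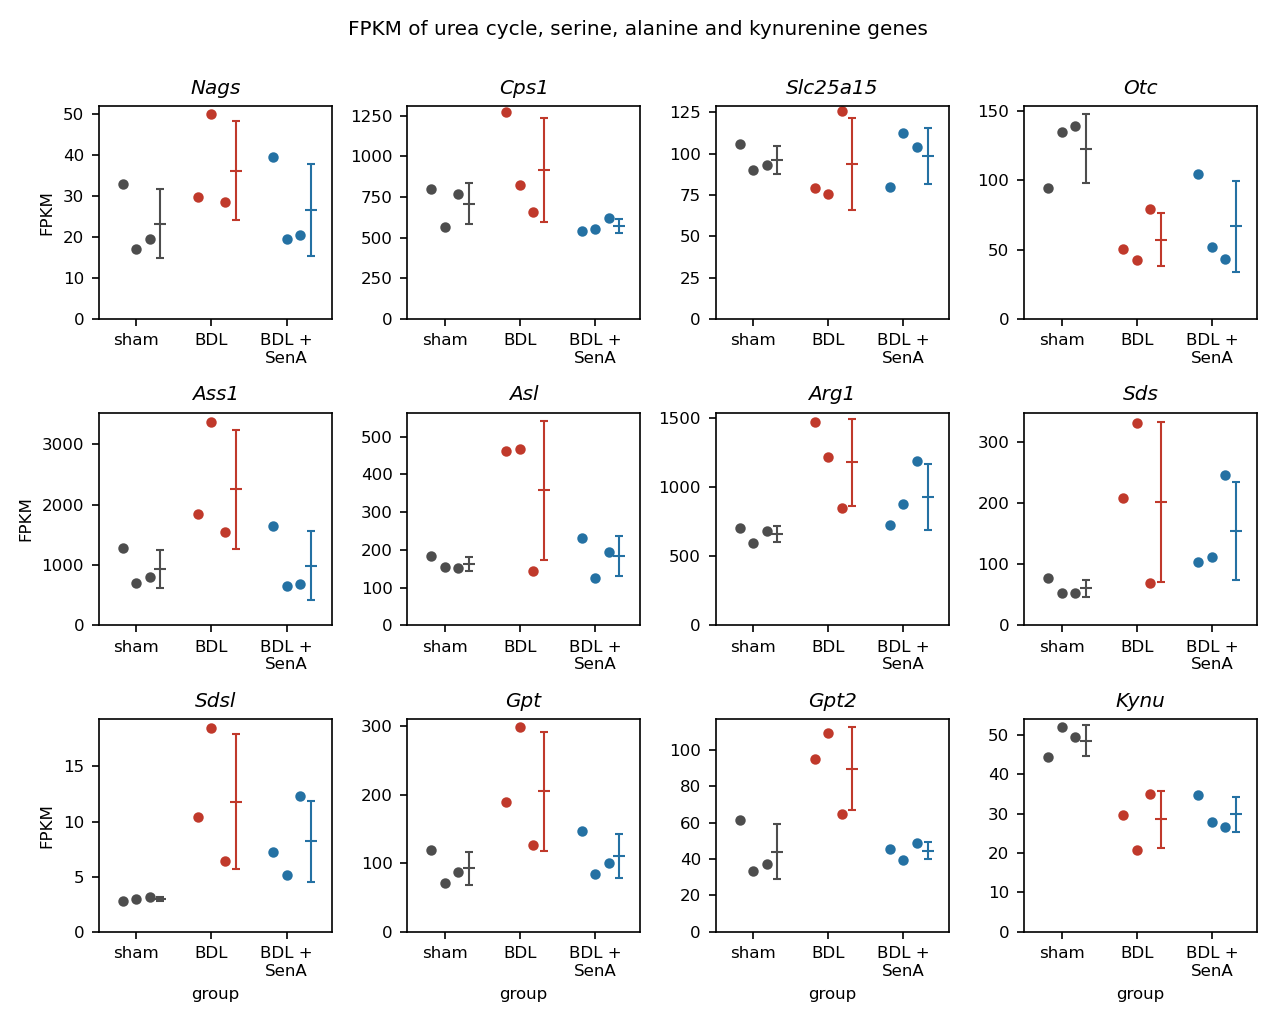
FPKM of 12 members in each library (points) with the group mean and SD beside them (bars, n = 3), for sham (grey), BDL (red) and BDL plus senkyunolide A (BDL + SenA, blue). Each panel has its own vertical axis from 0. Otc and Kynu lie below sham in every BDL library, whereas Ass1, Arg1, Sdsl, Gpt and Gpt2 lie above it, and the BDL and treated points of Nags, Ass1, Otc and Sds are spread widely.

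Serine and alanine degradation held the 2 genes that rose. Sdsl (chr5:120458193-120472825) and Sds (chr5:120476547-120483932) encode related dehydratases that turn serine into pyruvate and ammonia, and the genes are neighbours on chromosome 5, 3721 bases apart. Sdsl was at 2.77, 2.95 and 3.18 FPKM in the sham libraries, 10.4, 18.5 and 6.46 in the BDL libraries and 7.2, 5.13 and 12.3 in the treated libraries. All 6 libraries of the ligated groups exceeded all 3 sham libraries. The fold change on the log2(FPKM + 1) scale was 2.99, a log2 difference of 1.58 ± 0.35 (limma, adjusted p = 0.0198), which understates the change of a gene of low level. The adjusted p was 0.0809, 0.0773 and 0.0843 without sham library 2, sham library 3 and BDL library 2, and ran from 0.00732 to 0.0843 over all settings tried. In treated against sham the log2 difference was 1.14 ± 0.35 (adjusted p = 0.0877), and in treated against BDL -0.44 ± 0.35 (adjusted p = 0.557). Sds was at 76.9, 53.1 and 52.8 FPKM in the sham libraries, 208, 331 and 68.7 in the BDL libraries and 104, 112 and 247 in the treated libraries. BDL library 3 lay within the sham range and BDL library 2 reached the top of all 9, which gave the widest spread of any member, an SD of 1.16 on the log2 scale in BDL. The log2 difference was 1.47 ± 0.51 in BDL against sham (adjusted p = 0.0868) and 2.11 (adjusted p = 0.00874) without BDL library 3. Without BDL library 1 or BDL library 2 it was 1.32 and 0.99 (limma, adjusted p = 0.181 and 0.315). Sds passed in BDL against sham under 1 of the 17 other settings. Of its exonic bases 21.3% overlap Plbd2 and 8.32% another gene on the opposite strand.

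Among the 4 transaminases, which move amino groups between amino acids and keto acids, Gpt2 rose in BDL against sham. Gpt2 (chr8:85492576-85528902) was at 61.2, 33.6 and 37.1 FPKM in the sham libraries, 95.1, 109 and 64.5 in the BDL libraries and 45.2, 39.4 and 48.7 in the treated libraries. BDL lay above both other groups without overlap, and the treated libraries lay within the sham range. The fold change was 2.04, a log2 difference of 1.03 ± 0.28 (limma, adjusted p = 0.0384), and in treated against BDL the log2 difference was -0.97 ± 0.28 (adjusted p = 0.407). The call was lost without sham library 2 (adjusted p = 0.164), sham library 3 (0.166), BDL library 1 (0.0929), BDL library 2 (0.149) or treated library 2 (0.0561), and with median-ratio (0.0852), quantile (0.0608) or hepatocyte marker scaling (0.0808). Gpt (chr15:76696726-76699675), the cytosolic alanine aminotransferase, was at 119, 71.8 and 86.6 FPKM in the sham libraries, 189, 299 and 127 in the BDL libraries and 147, 84 and 101 in the treated libraries. It followed the pattern of Gpt2 in BDL, with a log2 difference of 1.08 ± 0.34 (adjusted p = 0.0631), and -0.84 ± 0.34 in treated against BDL (adjusted p = 0.407). Got1, the cytosolic aspartate aminotransferase, was at 102, 63.1 and 63 FPKM in the sham libraries, 235, 243 and 78.7 in the BDL libraries and 94.7, 68.8 and 140.5 in the treated libraries. BDL libraries 1 and 2 stood far above the rest and BDL library 3 within the sham range, and the log2 difference was 1.14 ± 0.43 (adjusted p = 0.108). Agxt, alanine-glyoxylate aminotransferase, had a log2 difference of 0.07 ± 0.38. All 4 differences were positive, and their median was 1.06.

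Methionine and sulfur genes were among the most abundant members. Bhmt (chr13:93616891-93637758), which remethylates homocysteine with betaine, was at 1651, 1136 and 1409 FPKM in the sham libraries, 3609, 2514 and 2268 in the BDL libraries and 1498, 3746 and 4376 in the treated libraries. Cth (chr3:157894248-157925081), cystathionine gamma-lyase, which makes cysteine, was at 187, 269.5 and 280.1 FPKM in the sham libraries, 485, 439.7 and 382 in the BDL libraries and 239, 637 and 725 in the treated libraries. For both genes every BDL library exceeded every sham library, treated libraries 2 and 3 exceeded every BDL library, and treated library 1 lay within the sham range. The log2 differences in BDL against sham were 0.99 ± 0.40 for Bhmt (limma, adjusted p = 0.131) and 0.84 ± 0.38 for Cth (adjusted p = 0.175). In treated against sham they were 1.07 ± 0.40 (adjusted p = 0.138) and 0.99 ± 0.38 (adjusted p = 0.154). Without treated library 1 they were 1.55 and 1.49 (adjusted p = 0.00454 and 0.0021), in a fit where 18.3% of all genes passed. This was the only 1 of the 17 other settings under which either gene passed in treated against sham. Over those settings the adjusted p reached 0.496 for Bhmt and 0.531 for Cth. Mat1a, which makes S-adenosylmethionine in liver, was at 615, 419.5 and 433 FPKM in the sham libraries, 1819, 1414 and 466 in the BDL libraries and 602, 975 and 1453 in the treated libraries. It was high in BDL libraries 1 and 2 and within the sham range in BDL library 3. Gnmt, the glycine N-methyltransferase that consumes S-adenosylmethionine, was higher in all treated libraries than in all sham libraries, with a log2 difference of 0.69 ± 0.29 (adjusted p = 0.182). Cbs, cystathionine beta-synthase, went the other way, with -0.27 in BDL and -0.47 in treated against sham (adjusted p = 0.652 and 0.457).

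All 4 genes of tryptophan degradation had lower means after BDL, with a median log2 difference of -0.63, and none passed the test. Kynu (chr2:43555258-43683048), kynureninase, which cleaves kynurenine, was at 44.3, 51.9 and 49.4 FPKM in the sham libraries, 29.7, 20.8 and 34.9 in the BDL libraries and 34.8, 27.8 and 26.7 in the treated libraries. Both ligated groups lay wholly below sham for Kynu. The log2 difference was -0.78 ± 0.23 in BDL against sham (limma, adjusted p = 0.0535) and -0.69 ± 0.23 in treated against sham (adjusted p = 0.106), and the first passed under 4 of the 17 other settings, median-ratio and quantile scaling among them. Kmo, kynurenine 3-monooxygenase, was at 144, 155 and 179 FPKM in the sham libraries, 97.7, 64.3 and 149 in the BDL libraries and 118, 121 and 93.1 in the treated libraries. Only BDL library 3 of the ligated groups reached into the sham range. Tdo2, the hepatic tryptophan dioxygenase that opens the pathway, had log2 differences of -0.50 in BDL and -0.74 in treated against sham (adjusted p = 0.369 and 0.218). Haao, which makes the precursor of quinolinate, was below sham in all BDL libraries (-0.57, adjusted p = 0.25), and treated library 1 was the highest of the 9 at 168 FPKM.

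Tyrosine genes were divided. Tat, tyrosine aminotransferase, lay above sham in all BDL libraries with a log2 difference of 0.37 ± 0.25 (limma, adjusted p = 0.359), and Hgd, homogentisate dioxygenase, lay below sham in all 6 libraries of the ligated groups with -0.47 ± 0.23 in BDL (adjusted p = 0.201) and -0.38 ± 0.23 in treated (adjusted p = 0.352). Hpd, 4-hydroxyphenylpyruvate dioxygenase, was at 1099.5, 839.8 and 886 FPKM in the sham libraries, 874, 949 and 584 in the BDL libraries and 1351, 506 and 450.2 in the treated libraries. Treated library 1 was the highest and treated library 3 the lowest of the 9. Fah, the last enzyme of the pathway, ran from 165 to 412 FPKM within the treated group alone.

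The genes of glutamine, glutamate and proline had a median log2 difference of 0.04 in BDL against sham. Glud1, glutamate dehydrogenase, which frees ammonia from glutamate, was at 408, 334 and 334 FPKM in the sham libraries, 388, 400.0 and 318 in the BDL libraries and 357, 253 and 256 in the treated libraries. The 95% interval of its difference in BDL against sham was -0.48 to 0.56. Gls2, the liver glutaminase, had -0.01 in BDL and -0.62 in treated against sham (limma, adjusted p = 0.987 and 0.315). Prodh2, hydroxyproline dehydrogenase, was below sham in all BDL libraries, at 19.9 to 34.9 FPKM against 44.2 to 59 in sham, with a log2 difference of -0.81 ± 0.43 (adjusted p = 0.246). Treated library 1 had the highest Prodh2 of the 9 libraries and treated library 3 the lowest, and the SD of 1.06 on the log2 scale was the widest of any member in that group. Prodh, proline dehydrogenase, and Aldh4a1, which completes proline degradation, had 0.41 and 0.48, with adjusted p of 0.477 and 0.401. For Aldh4a1, 32.5% of the exonic bases are shared with a same-strand gene model.

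The remaining 11 genes had log2 differences of at most 0.52 in size in BDL against sham. The histidine genes Hal, Uroc1 and Ftcd, which take histidine to glutamate, had log2 differences of -0.23, -0.03 and -0.21. Of the lysine and branched-chain genes, Bckdhb, a subunit of the branched-chain keto acid dehydrogenase, lay above sham in both ligated groups without overlap, with 0.52 ± 0.24 and 0.55 ± 0.24 (limma, adjusted p = 0.179 and 0.192). The margin in BDL was narrow, as the lowest BDL library had Bckdhb at 36.7 FPKM and the highest sham library at 36.6. Bckdha, its partner subunit, had 0.17, and 61.7% of its exonic bases overlap B3gnt8 on the opposite strand. Aass, which starts lysine degradation, and Ivd, the isovaleryl-CoA dehydrogenase of leucine, had 0.18 and -0.30. The glycine cleavage genes Gldc and Amt had -0.18 and -0.42, with Amt below sham in all BDL libraries (adjusted p = 0.379). Dmgdh and Sardh, the dehydrogenases of dimethylglycine and sarcosine, had 0.35 and 0.13. Sardh was at 198, 122 and 124 FPKM in the sham libraries, 145, 240.4 and 113 in the BDL libraries and 181, 66.2 and 57.6 in the treated libraries. Treated libraries 2 and 3 were the lowest of the 9 for Sardh, and the log2 difference in treated against BDL was -0.83 ± 0.43 (adjusted p = 0.424).

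In treated against BDL, the comparison that addresses the compound, none of the 42 genes passed, and 1 of 9884 genes did (0.0101%). At an unadjusted p under 0.05 there were 4 members, Gpt2, Ass1, Gpt and Cps1, against 12.3% of all genes. No member had all treated libraries above all BDL libraries, against 3.25% of all genes, and 2 had all treated libraries below, Cps1 and Gpt2, against 14.3%. The median log2 difference of the 42 genes was -0.25 beside -0.12 over all genes, with 30 negative and 12 positive. Of all 9884 genes, 6117 were negative and 3767 positive. The smallest adjusted p among the members was 0.407. Over all settings tried no member passed, with the smallest adjusted p of 0.065 without BDL library 3 and 0.0679 without treated library 1. This comparison shares the BDL libraries with BDL against sham. For Ass1 the 95% interval in treated against BDL was -2.18 to -0.31, for Gpt2 -1.58 to -0.36, and for Sdsl, which rose in BDL, -1.21 to 0.33.

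In treated against sham none of the 42 genes passed, against 2.17% of all genes, and 9 had an unadjusted p under 0.05, against 23.2%. All treated libraries lay above all sham libraries for 5 members, Arg1, Sds, Sdsl, Gnmt and Bckdhb, against 17.5% of all genes, and below for 3, Hgd, Kmo and Kynu, against 12.1%. The median log2 difference was -0.15 beside 0.04. Without treated library 1, 13 members passed, against 18.3% of all genes: Bhmt and Cth rose, and Amt, Cbs, Gldc, Gls2, Hpd, Kynu, Otc, Prodh2, Sardh, Tdo2 and Uroc1 fell.

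Single libraries moved many of these genes at once. The median over the 42 genes of the log2 difference from the sham mean was 0.26, -0.17 and -0.09 in the sham libraries, 0.16, 0.36 and -0.11 in the BDL libraries and 0.25, -0.42 and -0.43 in the treated libraries. Over all tested genes the same median was 0.15, -0.09 and -0.07 in sham, 0.10, 0.12 and 0.23 in BDL and 0.06, 0.05 and 0.01 in the treated libraries. The members thus stood lower than the body of genes in BDL library 3 and in treated libraries 2 and 3, and higher in treated library 1. BDL library 3 was the lowest of its group for 28 of the 42 genes, or 66.7%, against 23.0% of all tested genes. BDL library 2 was the highest of its group for 24, or 57.1%, against 34.2%, and treated library 1 for 26, or 61.9%, against 42.8%. The sham libraries were uneven too: sham library 1 was the highest of its group for 33 members, or 78.6%, against 62.5%, and sham library 2 the lowest for 25, or 59.5%, against 43.9%. Treated libraries 2 and 3 were below all sham libraries for 25 and 23 members (59.5% and 54.8%), against 28.6% and 34.1% of all tested genes, and treated library 1 for 7 (16.7%), against 26.7%. The median SD of the log2 level within a group was 0.29 in sham, 0.40 in BDL and 0.54 in the treated group for the members, and 0.23, 0.30 and 0.24 for all tested genes. BDL library 3 also had the highest biliary share of all, 0.125%, and treated library 1 had the lowest biliary and macrophage shares of the ligated groups, 0.0121% and 0.116%. Spp1 alone was 551.4 of the 608.6 FPKM behind the biliary share of BDL library 3. Krt19 was also highest in that library, at 6.7 FPKM, but Sox9 was highest in treated library 3, at 9.16. The stellate and fibroblast share was 0.0344% in BDL library 3 against 0.00775% and 0.0116% in BDL libraries 1 and 2, and the endothelial share was 0.0371% against 0.0136% and 0.0186%. Dcn alone was 59.5 of the 167.4 FPKM behind the stellate and fibroblast share of BDL library 3. Other markers of that list differed, and Col1a1 was at 1.27, 3.68 and 8.99 FPKM in BDL libraries 1 to 3, against at most 1.44 in sham. The hepatocyte share was 20.5% in BDL library 3 and 20.2%, 22.4% and 24.8% in treated libraries 1 to 3. Single abundant markers weigh on this share, Alb and Hpx among them. Alb was at 36653.5 FPKM in BDL library 3 and 35510, 22249 and 29327.2 in treated libraries 1 to 3, against at least 29047.9 in sham. Hpx was at 10084 FPKM in BDL library 3 and 4502, 27771 and 28862 in treated libraries 1 to 3, against at most 3964 in sham. Cyp2e1, which is less abundant and weighs less on the share, was at 846, 3007, 1476 and 694 FPKM in the same order, against at least 2524 in sham. The part of these shares in the members' levels was not tested.

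**Figure D4:**
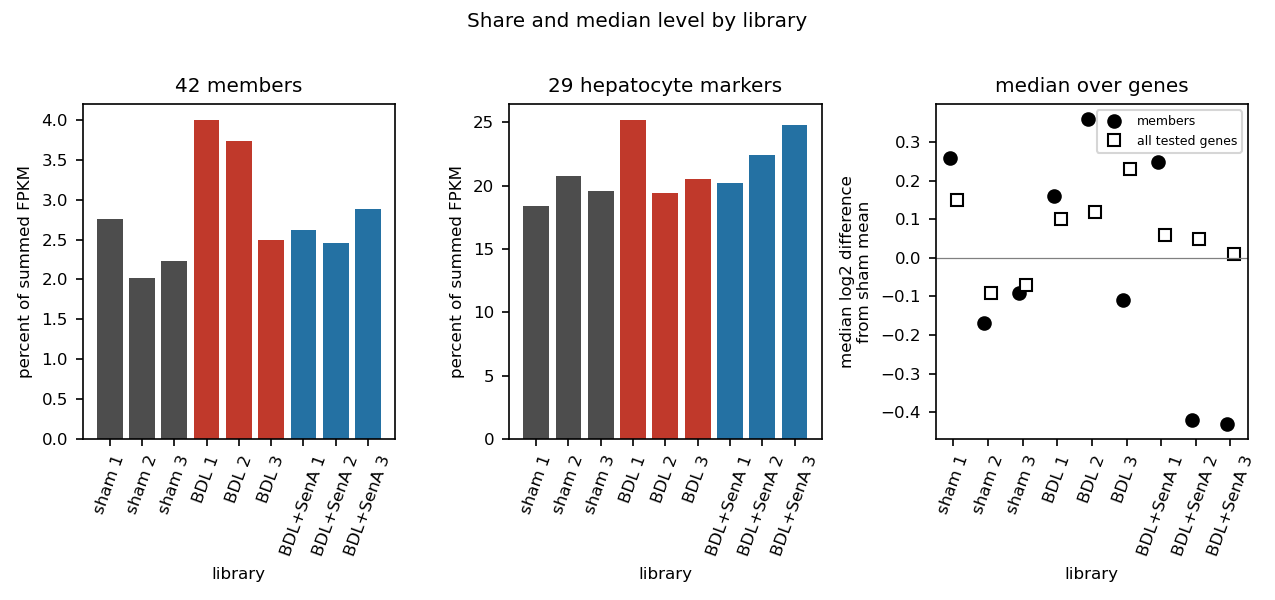
Percent of the summed FPKM held by the 42 genes (left) and by 29 hepatocyte markers (middle), and the median log2 difference from the sham mean (right) of the 42 genes (filled circles) and of all tested genes (open squares), for each library. SenA stands for senkyunolide A. The members' share is 4.0% and 3.73% in BDL libraries 1 and 2 and 2.49% in BDL library 3, and their median is 0.25 in treated library 1 but -0.42 and -0.43 in treated libraries 2 and 3.

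Other genes of the same pathways, a list of 106 outside the 42, give the surroundings. Of these 95 were tested and 12 passed in BDL against sham, 4 higher and 8 lower, beside the 8.12% and 2.84% given above for all genes. The balance was 2 higher and 16 lower with median-ratio scaling and 2 and 13 with quantile normalization. Asns, asparagine synthetase, was at 2.03, 1.01 and 1.63 FPKM in the sham libraries, 16.4, 13.9 and 4.81 in the BDL libraries and 3.91, 6.02 and 5.23 in the treated libraries. Its log2 difference of 2.18 ± 0.36 was the largest rise (limma, adjusted p = 0.00712). Psat1, an aminotransferase of serine synthesis, rose by 1.06 (adjusted p = 0.00795), from a sham mean of 0.365 FPKM to a BDL mean of 1.85. The treated mean was 0.83 FPKM, so Psat1 passed the filter at a mean of 1 only through the BDL libraries, where it was high. Sqor, which oxidizes sulfide, rose by 0.74 (adjusted p = 0.0379). Hao1, glycolate oxidase, was at 159, 271 and 240.3 FPKM in the sham libraries, 14.6, 12.1 and 72.4 in the BDL libraries and 141, 60.1 and 39.3 in the treated libraries. It had the largest fall, -3.15 ± 0.61 (adjusted p = 0.0138), with BDL library 3 and treated library 1 nearest to sham in their groups. Aadat, an aminotransferase of kynurenine and aminoadipate, fell by 1.21 (adjusted p = 0.0112) and was the single gene of the list to pass in treated against sham, where it fell by 0.99 (adjusted p = 0.0485). That second call held under 5 of the 17 other settings, with an adjusted p of 0.00556 to 0.219 over them.

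Further falls were in Acadsb, the short/branched-chain acyl-CoA dehydrogenase (-1.24, limma adjusted p = 0.0199), Ppm1k, the phosphatase that activates the branched-chain keto acid dehydrogenase (-1.11, adjusted p = 0.0223), and Slc38a2, a neutral amino acid transporter (-0.75, adjusted p = 0.0411). Pcca of propionate metabolism fell as well (adjusted p = 0.0485) and was named after its values were seen. Over the whole list, 31 of 95 genes lay wholly below sham after BDL and 9 wholly above, beside 8.96% and 21.5% of all genes. The calls of Sqor, Slc38a2 and Pcca held under 6, 6 and 7 of the 17 other settings. Asns and Psat1 passed in BDL against sham under each setting in which they were tested, which for Psat1 leaves out the filter at a mean FPKM of at least 5. Psat1 is a gene of low level that entered the main test through its BDL values. Without sham library 2 or sham library 3 no gene of the list fell, where 1.76% and 1.55% of all genes passed. Without BDL library 2 there were 2 that rose and 2 that fell (1.95% of all genes passed), and without treated library 1 there were 6 and 18 (17.4%). None of the list passed in treated against BDL, where Psat1 had -0.65 and Asns -0.93 (adjusted p = 0.407 for both). Without BDL library 3 Asns passed as a fall in that comparison. Without treated library 1, 3 genes of the list rose and 28 fell in treated against sham, where 18.3% of all genes passed. Of 11 tested regulators of liver metabolism, Hnf4a and Cebpa among them, none passed in any comparison.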

How the data were processed

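RNA from 9 libraries in 3 groups of 3 (sham, BDL, BDL plus senkyunolide A) was sequenced; the labels' protocols name TRIzol for extraction and the NEBNext Ultra kit for library preparation. The authors deposited FPKM values, 1 column per library. The submitters' processing notes list featureCounts 1.5.0-p3, HISAT2 2.0.5, DESeq2 1.20.0, fastp and CASAVA 1.8, on the GRCm38 (mm10) build. Not given in the sources used here are their settings and order, whether strand was used, and the annotation. FPKM are divided by the library total, so that very abundant genes depress the values of the rest.

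Groups were taken from the sample titles. Genes whose FPKM averaged at least 1 (9884 of 22173) were tested as log2(FPKM + 1) with limma 3.58.1 in R 4.3.3, by a linear model over all 3 groups with empirical Bayes moderation and a trend in the variance. Tests were two-sided, and a Benjamini-Hochberg adjusted p under 0.05 made a call. The procedure was also run on simulated data, with noise drawn independently for each gene and library. Deviations that many genes share within a single library were not simulated, so that run does not speak to them. The alternatives were a pseudocount of 0.1, no filter or a mean FPKM of at least 5, median-ratio scaling, quantile normalization, the 2 groups compared only, a replicate block and leaving out each library. Scaling to the hepatocyte markers was chosen after seeing the data.

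Depth was estimated from the smallest steps in the FPKM of genes with a single transcript. Since counts were not recovered, neither a count model nor counting intervals were used. Gene positions are from RefSeq and exonic overlaps from GENCODE, both on GRCm38, counted from 1. Values in every library are given for the 7 urea cycle genes, for members called in any comparison and for the 6 members with the smallest p in each comparison; for the other pathway genes and regulators, up to 10 with the smallest p. Got1, Mat1a, Kmo, Hpd and Glud1 are given in full too, chosen after their values were seen. The members and lists were chosen with earlier results of these data known. A few genes of the pathway and regulator lists are counted but not reported here by name.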

Additional observations from a re-analysis of the deposited data

How the results depend on the processing

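Over the log2 differences of the 15 members given by rule, 692 of the values under other settings kept direction and side of the threshold, 25 passed it newly, 13 no longer passed and 35 turned sign, 26 of the last on leaving out 1 library. The cause of these changes was not tested. Some settings leave the log2 difference unchanged by design and can move only its p-value. These are the filters on low values, the 2 groups only, the replicate block and leaving out a library of the group not compared. Direction was fixed in advance under them. The median over the 42 genes turned from 0.18 to -0.04 in BDL against sham with median-ratio scaling. It kept its sign under the other settings that can move it, and in the other comparisons. In BDL against sham, 1084 of 9884 genes were called (11.0%). The filters change the number of genes tested. With all genes above 0 there were 520 of 16802 (3.09%), and at a mean FPKM of at least 5 there were 678 of 5781 (11.7%). Hepatocyte marker scaling gave 695 of 9884 (7.03%), and leaving out 1 library gave 153 to 1722. Members called went from 2 to 0 with all genes above 0, 7 with the 2 groups only, 1 with hepatocyte marker scaling, and 0 to 11 on leaving out 1 library. In treated against BDL the 1 gene called became 0 with the 2 groups only, and 0 to 62 on leaving out 1 library. In treated against sham the 214 genes called became 418 with a pseudocount of 0.1, 3 with all genes above 0, 131 with median-ratio scaling, 105 with quantile normalization and 60 with the 2 groups only, and 0 to 1806 on leaving out 1 library, with 0 to 13 members.

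Same-numbered libraries did not deviate together: the correlations of their deviations ran from -0.385 to 0.25. With the replicate block, genes called were 882 in BDL against sham, 0 in treated against BDL and 374 in treated against sham, and members called stayed at 2, 0 and 0.

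The signs that turned belonged to differences that had not passed the threshold. In BDL against sham Sardh was -0.08 with median-ratio scaling, and on leaving out 1 library Sardh ran from -0.17 to 0.37 and Slc25a15 from -0.30 to 0.06. In treated against BDL Bhmt was -0.30 with quantile normalization, and on leaving out 1 library the ranges were -0.03 to 0.33 for Slc25a15, -0.21 to 0.42 for Otc, -0.12 to 0.24 for Kynu, -0.88 to 0.25 for Sds, -0.21 to 0.56 for Bhmt and -0.15 to 0.65 for Cth. In treated against sham Slc25a15 was -0.07 with median-ratio scaling, -0.07 with quantile normalization and -0.14 with hepatocyte marker scaling; Asl was -0.04 with hepatocyte marker scaling; and Gpt2 was -0.03, -0.06 and -0.11 with the same 3 scalings. On leaving out 1 library the ranges were -0.15 to 0.44 for Nags, -0.07 to 0.17 for Slc25a15, -0.44 to 0.25 for Ass1, -0.06 to 0.38 for Asl and -0.10 to 0.32 for Gpt2.

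Groups hold 3 libraries, so 1 library can decide a call. FPKM keep no counts, so counting error could not be set beside the spread. Hepatocyte transcripts dominate libraries labelled cholangiocyte, so the levels are those of the mixture.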
